A study of Mus musculus with 29 samples.

Results

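The squamous epithelial genes examined here were Trp63, Krt5, Krt14, Krt15, Dsg3, Ly6d, Serpinb5, Sprr1a and Sprr2a3, that is 9 of the 24421 genes in the count table. They were found by their symbols, and each had 1 row. Krt15, Ly6d, Sprr2a3 and Serpinb5 were chosen by their measured counts, which changed strongly in tumor tissue, with no threshold and no named contrast. Their values are therefore given as a description without a test, and tests are given only for the other 5 genes.

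The study followed peritoneal dissemination of YTN16, a mouse gastric cancer cell line, after IP injection into female C57BL/6J mice aged 5 to 6 weeks. All groups received the tumor cells, and RNA was taken from the stripped peritoneum with or without nodules, so the libraries hold host tissue as well as tumor cells. Untreated mice received PBS; the others received IP anti-PD1 at 10 mg/kg, anti-CTLA4 at 5 mg/kg, or both (dual ICI). The 3wk mice were treated on days 5, 8 and 12 and killed on day 21 (5 untreated, 5 dual ICI), and the 5wk mice were also treated on days 21 and 28 and killed on day 35. Of the 5wk mice, 5 were untreated, 5 had anti-PD1, 4 had anti-CTLA4 and 5 had dual ICI. The last were told apart by outcome, through the mouse number in the library title, as 2 uncured and 3 cured mice. No label names a batch, but the library identifiers in the column names of the 3wk and 5wk mice lie in separate number ranges. Time and any difference in library handling therefore cannot be told apart.

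Stratified squamous epithelium, as in the skin, the esophagus and the mouse forestomach, renews itself from a basal cell layer. Basal cells are marked by the transcription factor p63 (Trp63) and by the keratin pair 5 and 14, and Krt15 marks part of that layer. The cells of this epithelium are joined by desmosomes, whose adhesive cadherins include Dsg3. Cells that leave the basal layer finally build a cornified envelope cross-linked from small proline-rich proteins such as Sprr1a and Sprr2a3. Ly6d is a GPI-anchored surface protein of the Ly6 family that is abundant in squamous cells, and Serpinb5 (maspin) is a serpin of epithelial cells. The glandular stomach normally expresses the simple keratins Krt8 and Krt18 instead of this set.

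On GRCm38, with GENCODE vM21 annotation, Krt5 lies at chr15:101707070-101712898 and Ly6d at chr15:74762056-74763620, both on the minus strand. Krt14 (chr11:100203162-100207548) and Krt15 (chr11:100131758-100135928) lie in one keratin cluster, also on the minus strand. Sprr1a (chr3:92483952-92485895, minus strand) and Sprr2a3 (chr3:92285417-92291405, plus strand) belong to the epidermal differentiation cluster. Trp63 spans chr16:25683763-25892102 and Serpinb5 chr1:106861173-106883348, both on the plus strand. Promoter sequences, 250 bases before to 50 bases after the start in RefSeq on GRCm38.p6, were at hand for 5 of the 9 genes. The window given for Krt14 lies inside the gene as GENCODE places it, so it is not used here. Krt5, Serpinb5 and Sprr1a are shown, because Krt5 varied apart from Serpinb5 and Sprr1a in these data. A TATA box (TATAAA) and an AP-1 element (TGANTCA) were searched on both strands and are marked by capitals. An AP-2 element (GCCNNNGGC) was searched likewise.

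Krt5, chr15:101712856-101713155, minus strand: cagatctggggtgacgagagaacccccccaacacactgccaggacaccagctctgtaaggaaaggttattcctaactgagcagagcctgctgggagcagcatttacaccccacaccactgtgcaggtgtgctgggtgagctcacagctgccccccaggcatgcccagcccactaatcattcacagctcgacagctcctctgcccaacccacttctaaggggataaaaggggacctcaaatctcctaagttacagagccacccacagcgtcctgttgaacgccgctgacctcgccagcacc
Serpinb5, chr1:106860925-106861224, plus strand: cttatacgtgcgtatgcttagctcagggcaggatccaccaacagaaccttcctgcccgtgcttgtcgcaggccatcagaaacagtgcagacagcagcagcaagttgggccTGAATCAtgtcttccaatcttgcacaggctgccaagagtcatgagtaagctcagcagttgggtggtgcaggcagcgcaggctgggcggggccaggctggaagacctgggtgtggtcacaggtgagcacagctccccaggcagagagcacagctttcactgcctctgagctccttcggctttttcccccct
Sprr1a, chr3:92485832-92486131, minus strand: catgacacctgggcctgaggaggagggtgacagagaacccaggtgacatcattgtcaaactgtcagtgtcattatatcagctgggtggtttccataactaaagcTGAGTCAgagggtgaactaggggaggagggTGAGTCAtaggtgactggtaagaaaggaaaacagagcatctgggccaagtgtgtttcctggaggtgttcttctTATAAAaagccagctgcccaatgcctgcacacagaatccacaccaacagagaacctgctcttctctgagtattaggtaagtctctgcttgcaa

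The Sprr1a window held 1 TATAAA and 2 copies of TGAGTCA, and the Serpinb5 window held 1 TGAATCA. None of the 3 motifs was found in the windows of Krt5 and Sprr2a3. The Sprr2a3 window ends at chr3:92285353, before the start of the gene as GENCODE places it (92285417). Over 32544 distinct promoter windows of the same length, 13.6% held TATAAA, 7.79% held TGANTCA and 16.7% held GCCNNNGGC. These matches are descriptions of the letters only.

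Library totals ranged from 25989217 to 31219650 counts. Levels are given as CPM, the count scaled to library size with TMM factors, and log2 CPM has a prior count of 2. The summed level of 15 gastric epithelium markers, among them Epcam, Cdh1, Krt8 and Krt18, lay between 891 and 4586 CPM in all mice outside the cured group except 1. In the cured mice it was 21.7 to 114 CPM, and Tff1, Gkn1, Gkn2 and Muc5ac were at 0. The exception was anti-PD1 replicate 5, with 73.2 CPM. The study describes 1 cured anti-PD1 mouse without naming its library, so this library stayed in its labelled group, and results that rest on it are given with and without it. Skeletal muscle markers summed to 260110 to 295950 CPM in the cured mice, 267690 CPM in anti-PD1 replicate 5 and 26430 to 221300 CPM elsewhere. These sums carry the TMM factors and are not shares of the library counts. Fewer tumor cells and less RNA per tumor cell cannot be told apart in such bulk libraries. Markers of epidermis and hair summed to 3.21 to 14.3 CPM, with Krt2 and Flg2 at 0 in all 29 mice, except in cured replicate 3 (47.3 CPM). That mouse alone among the cured had counts of the hair keratins, such as 229 of Krt71 and 120 of Krt25. Mammary markers stayed at or below 1.43 CPM.

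**Figure D1:**
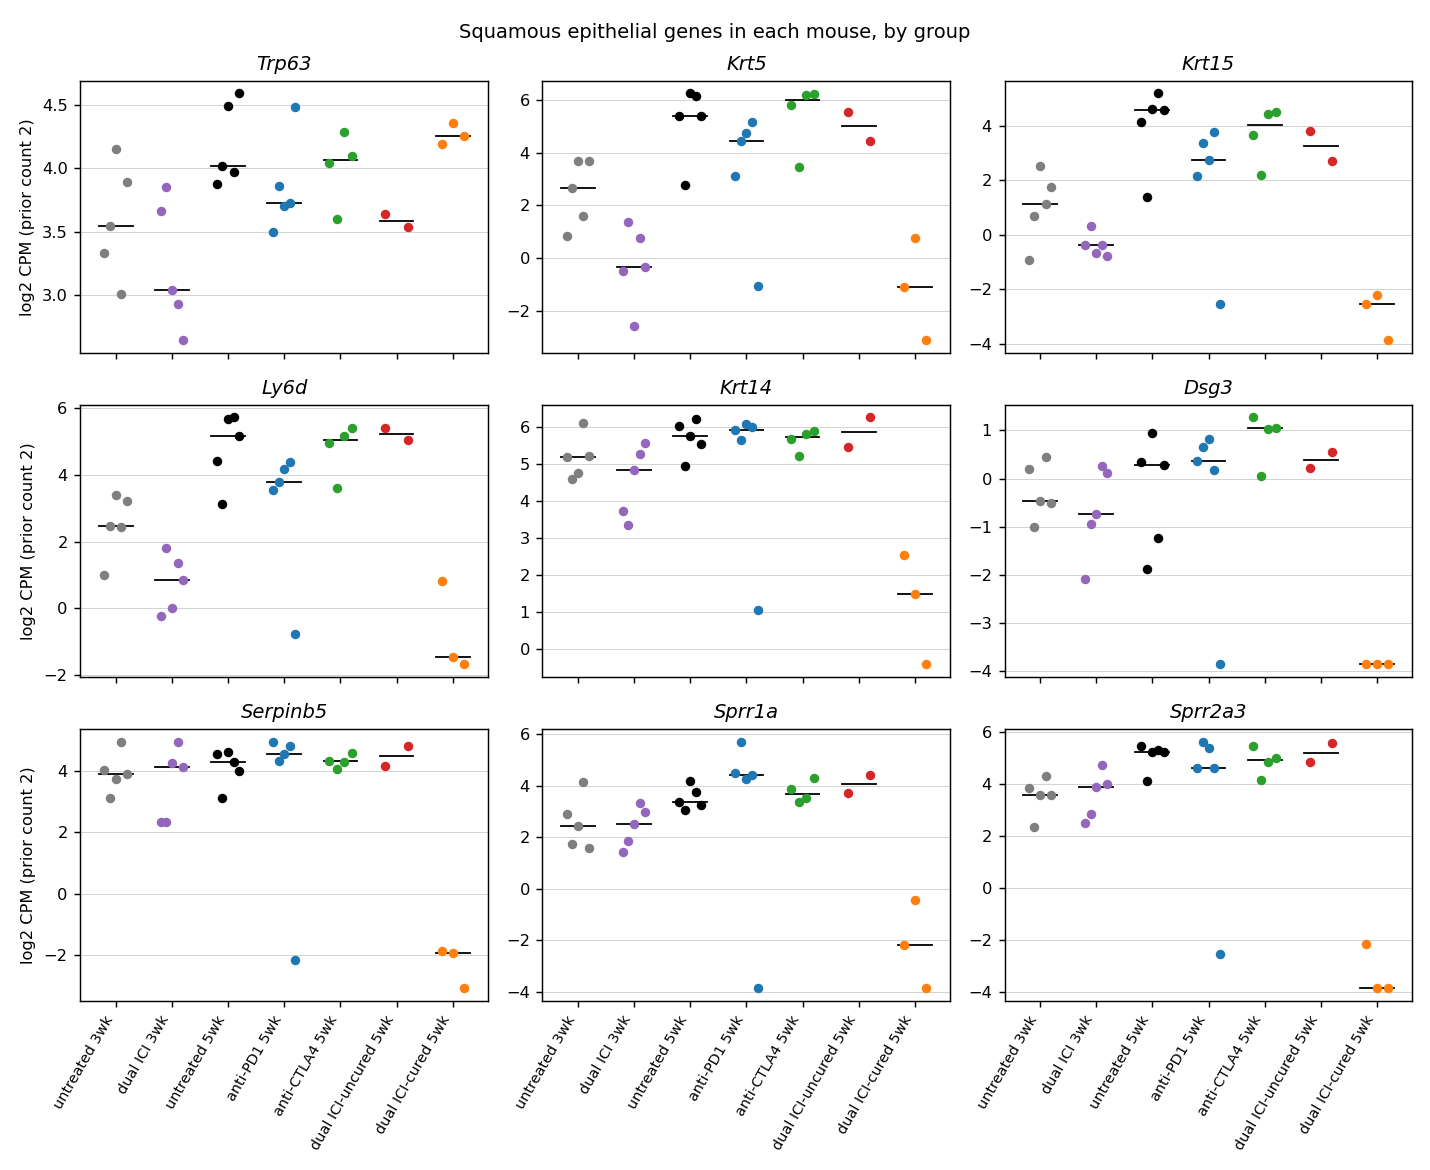
Level of each gene in each of the 29 mice (log2 CPM, prior count 2), by group; each point is 1 mouse and the bar is the group median. Except for Trp63, all genes sit low in the cured mice and in 1 anti-PD1 mouse, and Krt5, Krt15 and Ly6d also sit low in the dual ICI 3wk mice.

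Trp63, the master regulator of the basal layer, varied least over the 7 groups. Its CPM was 10.0, 11.6, 17.7, 7.98 and 14.8 in the untreated 3wk mice and 14.6, 16.1, 22.5, 15.6 and 24.0 in the untreated 5wk mice. The 3 cured mice had 18.2, 20.4 and 19.0 CPM, and anti-PD1 replicate 5 had 22.4 CPM. These 4 libraries, in which the gastric epithelium markers were nearly gone, lay inside the range of the untreated 5wk mice, and they also had the highest summed CPM of muscle markers. What part the muscle tissue had in this was not tested. Before TMM scaling, Trp63 had 1167 counts over the 3 cured mice and 2886 over the 5 untreated 5wk mice. Its level relative to the untreated mice thus depends on that scaling. Group means ran from 9.77 CPM in the dual ICI 3wk mice to 19.2 CPM in the cured mice, and each neighbouring pair of groups in that order overlapped.

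Krt5, the basal type II keratin, spanned the widest range outside the cured mice. The untreated 3wk mice had 1.72, 6.27, 12.8, 2.98 and 12.8 CPM, and the dual ICI 3wk mice had 0.658, 2.54, 0.0993, 1.66 and 0.732 CPM. At 5wk the untreated mice had 41.4, 6.71, 75.4, 70.3 and 41.1 CPM. So 4 of the 5 untreated 5wk mice were above all untreated 3wk mice, and replicate 2 was inside the 3wk range. That mouse also had the lowest gastric epithelium sum (1232 CPM) and the highest muscle sum (221300 CPM) of its group. The anti-PD1 mice had 8.65, 21.7, 26.3, 35.9 and 0.413 CPM, the anti-CTLA4 mice 55.7, 11.0, 71.5 and 73.4 CPM, and the uncured mice 46.5 and 21.8 CPM. The mean of the highest group, anti-CTLA4, was 46.5 times that of the dual ICI 3wk mice, the lowest group outside the cured mice.

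Krt15, a keratin of basal and progenitor cells, and Ly6d moved like Krt5. Krt15 had 0.455, 1.55, 5.75, 2.14 and 3.30 CPM in untreated 3wk mice and 17.7, 2.56, 24.6, 36.5 and 24.1 CPM in untreated 5wk mice. Ly6d had 1.93, 5.50, 10.4, 5.37 and 9.28 CPM in untreated 3wk mice and 21.5, 8.74, 50.6, 52.8 and 35.8 CPM in untreated 5wk mice. Both genes were low again in the dual ICI 3wk mice, at 0.509 to 1.19 CPM for Krt15 and 0.782 to 3.39 CPM for Ly6d. For both, replicate 2 was the untreated 5wk mouse that overlapped the untreated 3wk range.

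Krt14, the type I partner of Krt5, did not share this spread. Untreated mice had 36.4, 24.1, 27.3, 68.8 and 37.1 CPM at 3wk and 65.8, 31.1, 54.1, 74.8 and 46.5 CPM at 5wk. The ranges overlapped broadly, and group means outside the cured mice differed by at most 2.20-fold. The ratio within the keratin pair varied widely between mice, and neighbouring groups overlapped in it. Krt5 made 4.33 to 46.8 counts per 100 Krt14 counts in untreated 3wk mice, 0.349 to 24.7 in dual ICI 3wk mice and 21.6 to 139.5 in untreated 5wk mice.

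Dsg3, the desmosomal cadherin, was at 0.165 to 2.34 CPM outside the cured mice and anti-PD1 replicate 5. It had no count in those 4 libraries. Outside the cured mice, group means of Serpinb5 ran from 15.4 CPM in dual ICI 3wk mice to 23.2 CPM in uncured mice. Among the precursors of the cornified envelope, Sprr1a was highest in anti-PD1 mice, at 22.3, 52.6, 19.2 and 21.6 CPM in replicates 1 to 4 and 0 CPM in replicate 5. Sprr2a3 ran from 4.96 to 19.6 CPM in untreated 3wk mice and from 17.0 to 43.7 CPM in untreated 5wk mice. For these 4 genes and Krt14, all neighbouring groups in the order of means overlapped, except that the cured mice lay below the next group.

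Counts of Sprr2a3 are uncertain, since it has near-identical neighbours. Of its 100-base transcript windows 36.2% also occur in Sprr2a1 or Sprr2a2, of which 92.5% and 92.8% of windows are shared with other genes. Sprr2a3 collected 20560 counts over 29 libraries, whereas Sprr2a1 and Sprr2a2 had 0, Sprr1b 159 and Sprr2h 98. The value given for Sprr2a3 may thus belong to more than one of these copies. Krt5 shared 2.38% of its windows with other genes, Krt6a among them, and Krt14 shared 2.78% with Krt16. Compared per kilobase of exon, the median in untreated 5wk mice was highest for Ly6d (48.2 CPM per kb) and Krt14 (30.7), followed by Krt5 (18.8), Krt15 (13.6), Sprr2a3 (13.1), Sprr1a (12.7), Serpinb5 (7.06), Trp63 (1.92) and Dsg3 (0.164).

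The first comparison asked whether the genes differed between 5wk and 3wk in untreated tumors. By edgeR's quasi-likelihood test, with Benjamini-Hochberg adjustment over 15604 genes, 10.8% of genes passed an adjusted p under 0.05, and 6.24% were higher. Krt5 was the 1 of 5 tested members that passed, with 47.0 ± 27.6 against 7.31 ± 5.27 CPM (SD, n = 5 and 5) and a log2 fold change of 2.68 ± 0.66 (SE, adjusted p = 0.0286). This call was lost on leaving out untreated 5wk replicate 3, 4 or 5 or untreated 3wk replicate 1 or 2, with an adjusted p of 0.0534 to 0.0713. The values for Krt15 and Ly6d, given as a description, were 3.00 ± 0.68 and 2.38 ± 0.51 on the log2 scale, and for Sprr2a3 1.49 ± 0.32. Trp63 (0.58 ± 0.23, adjusted p = 0.12), Krt14 (0.49 ± 0.29, 0.273), Sprr1a (0.71 ± 0.45, 0.301) and Dsg3 (0.22 ± 0.52, 0.801) did not pass, and Serpinb5 differed by 0.14 ± 0.33. The gastric epithelium list also had a median log2 fold change of 0.90 in this comparison, with 2 of 12 tested genes higher. The median over all genes was 0.02. Sprr1a passed on leaving out untreated 3wk replicate 4 (1.32, adjusted p = 0.0325), the mouse with the highest level of its group (17.7 CPM).

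Other squamous genes were followed in lists by role, 77 genes in all. In the basal layer list, 3 of 11 tested genes were higher at 5wk, and the median log2 fold change was 0.65. These 3 were Krt17, a keratin of basal and stressed epithelium (2.41 ± 0.54, adjusted p = 0.0198), Col17a1, the hemidesmosomal collagen (2.15 ± 0.52, 0.0271), and the cadherin Fat2 (2.80 ± 0.70, 0.0296). In the cornified envelope list, 3 of 9 tested genes were higher, with a median of 1.33. Among them, the transglutaminase Tgm3 had groups without overlap, as had 6.02% of genes in this direction, at 1.94 ± 1.10 against 0.253 ± 0.139 CPM (SD, n = 5 and 5; log2 fold change 2.91 ± 0.53, adjusted p = 0.00994). The others were Tgm1 and Krt4, a keratin of internal squamous linings. Of the transcription factors 1 of 10, Pitx1, was higher, and no gene passed among 7 desmosome genes, 1 serpin or 3 Ly6 superfamily genes. Apart from Tgm3, these genes were named after their values were seen. No gene of the 6 lists was lower. Loricrin (Lor), a major protein of the cornified envelope kept among the epidermis markers, was also higher (log2 fold change 1.68 ± 0.44, adjusted p = 0.0348), and its groups did not overlap. The count of 7 higher genes in the 6 lists rested on single mice. It was 18 (and 1 lower) without untreated 5wk replicate 2, 1 or 2 without untreated 5wk replicate 3, 4 or 5 or untreated 3wk replicate 1, 2 or 5, and 5 or 6 without one of the others.

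**Figure D2:**
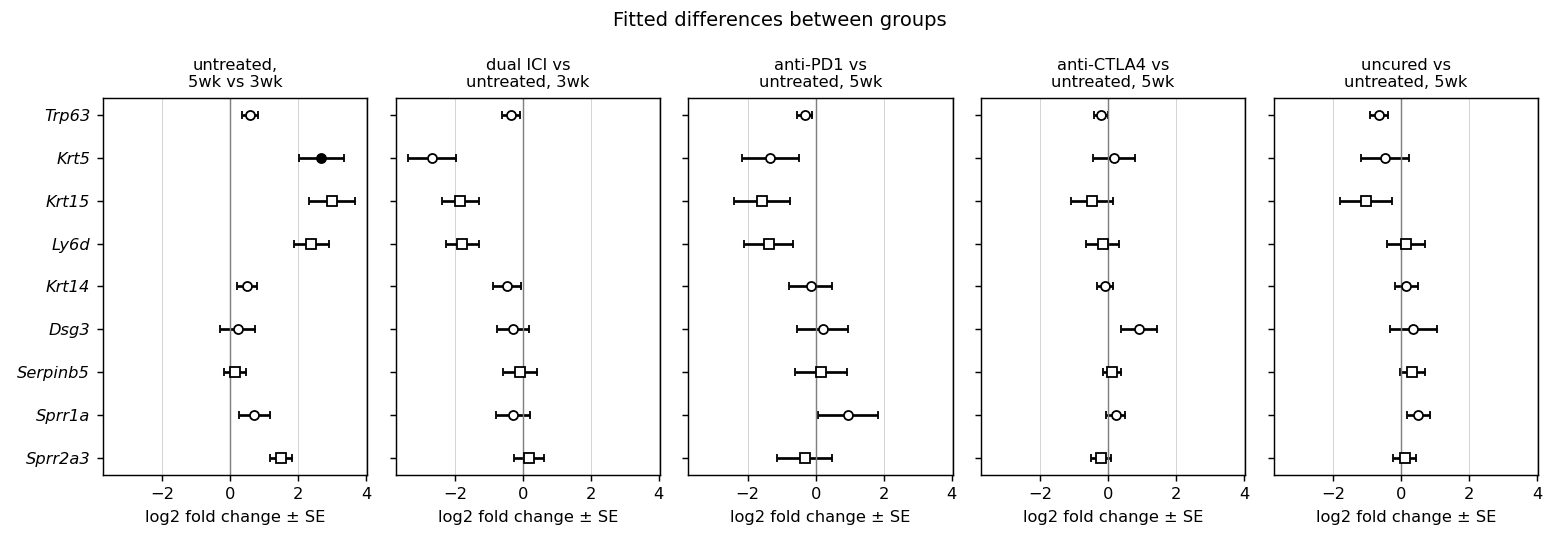
Log2 fold change ± SE of the 9 genes in 5 comparisons. Circles are the 5 tested genes, filled where the adjusted p is under 0.05 (Krt5, 5wk against 3wk), and squares are the 4 genes given as a description. Krt5, Krt15 and Ly6d lie together, above 2 over time and below -1.7 with dual ICI at 3wk.

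At 3wk, dual ICI mice were compared with untreated mice. With edgeR, 0.574% of 15503 genes passed, and none of the 5 tested members did. Krt5 had the largest difference, at 1.14 ± 0.96 against 7.31 ± 5.27 CPM (SD, n = 5 and 5), a log2 fold change of -2.68 ± 0.72 with an unadjusted p = 0.0031 and an adjusted p = 0.153. With DESeq2 the same difference passed (adjusted p = 0.0328), and over the other alternatives the adjusted p ranged from 0.111 to 0.335. Krt5 was below the lowest untreated mouse in 4 of the 5 dual ICI mice. As a description, Krt15 differed by -1.85 ± 0.54 and Ly6d by -1.79 ± 0.49. Trp63 (-0.35 ± 0.27), Krt14 (-0.47 ± 0.42), Dsg3 (-0.29 ± 0.47), Sprr1a (-0.29 ± 0.51), Serpinb5 (-0.10 ± 0.50) and Sprr2a3 (0.18 ± 0.43) had smaller differences. The gastric epithelium list did not go down with Krt5, since its median log2 fold change was 0.15 and its sum was 990 to 2913 CPM against 891 to 2632 CPM. None of the 35 tested genes of the wider squamous lists passed (median -0.16, 5 at an unadjusted p under 0.05, 3 lower with DESeq2), against a median of 0.02 over all genes.

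At 5wk, anti-PD1, anti-CTLA4 and dual ICI-uncured mice were each compared with the same 5 untreated mice. In each comparison edgeR called 0% of genes, and so none of the members; at an unadjusted p under 0.05 there were 205, 128 and 787 genes, and DESeq2 called 0, 0 and 17. With anti-PD1, Krt5 had a log2 fold change of -1.33 ± 0.84, Krt15 of -1.58 ± 0.84 and Ly6d of -1.39 ± 0.71. Without anti-PD1 replicate 5 these values were -1.03 ± 0.58, -1.28 ± 0.58 and -1.09 ± 0.44, whereas Krt14 went from -0.14 to 0.16. Sprr1a went from 0.95 ± 0.88 (adjusted p = 1.00) to 1.26 ± 0.33 (unadjusted p = 0.00299, adjusted p = 0.995). Without that mouse, Sprr1a did not overlap between the groups (19.2 to 52.6 against 8.34 to 18.2 CPM), as was so for 0.309% of genes in this direction. That subset was formed after the values were seen.

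With anti-CTLA4, the 9 values lay between -0.47 (Krt15) and 0.91 (Dsg3, ± 0.53, unadjusted p = 0.117). In the uncured mice Trp63 was 12.4 and 11.5 CPM, below the lowest untreated mouse (14.6 CPM). Its log2 fold change was -0.65 ± 0.26, with an adjusted p = 0.735, and 8.34% of genes lay below the untreated mice without overlap in this comparison. Krt15 differed by -1.04 ± 0.76 and the other 7 genes by -0.47 to 0.51. None of the 41 to 46 tested genes of the wider lists passed in these 3 comparisons. The effect of dual ICI at 5wk (uncured) minus that at 3wk was also fitted, and 0% of 16542 genes passed (1050 at an unadjusted p under 0.05, 1 with DESeq2). For Krt5 that difference was 2.21 ± 1.06 (adjusted p = 0.707), and for Ly6d it was 1.94 ± 0.78.

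Next, the cured mice were set beside the mice that kept tumors. Compared with the cured mice, 44.7% of 15816 genes differed in untreated 5wk mice and 70% of 15796 genes in uncured mice. Of the 5 tested members, Krt5, Krt14, Dsg3 and Sprr1a were higher in both, as were 26.7% and 36.9% of genes. Lower were 18% and 33.1% of genes. The same 4 genes were above the cured mice without overlap, in untreated and in uncured mice, as were 26.9% and 43.7% of genes. Untreated mice exceeded cured mice by 6.01 ± 1.01 for Krt5 (log2 fold change, adjusted p = 0.00155), 4.13 ± 0.59 for Krt14 (0.000662) and 5.37 ± 0.70 for Sprr1a (0.000421). Single cured mice moved these values by more than 1.5-fold, with each call kept. Without cured replicate 3 the log2 fold change was 7.66 for Krt5 and 7.22 for Sprr1a, without cured replicate 4 it was 4.78 for Sprr1a, and without cured replicate 2 it was 4.96 for Krt14. Dsg3 was at 0 in all 3 cured mice, and over the summed counts it was at least 20.9-fold higher in untreated and at least 25.4-fold higher in uncured mice (floor of 3 counts over the cured group). Krt14 in the cured mice was still at 5.78, 2.73 and 0.678 CPM.

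The 4 genes given as a description were also close to 0 in the cured mice. Summed over the 3 cured mice there were 5 counts of Krt15, 44 of Ly6d, 9 of Serpinb5 and 3 of Sprr2a3. All 3 counts of Sprr2a3 and 33 of the 44 counts of Ly6d came from cured replicate 2. The ratio of untreated to cured mice was 259 for Krt15, 47.3 for Ly6d and 128 for Serpinb5, given without interval or test. In cured replicate 3, whose hair keratins were noted above, Krt5 (34 counts) and Sprr1a (14 counts) were higher than in the other cured mice (8 and 1, 3 and 0), and what part skin or hair had in this was not tested.

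Trp63 stood apart in this comparison too. It did not pass between untreated and cured mice (-0.07 ± 0.20, adjusted p = 0.795) and was lower in uncured than in cured mice (-0.71 ± 0.13, adjusted p = 0.00132). The latter call was lost when all 29 libraries entered the fit (adjusted p = 0.0848). Before TMM scaling, Trp63 had 809 counts over the 2 uncured mice and 1167 over the 3 cured mice. Median library totals were 27976273.5 and 28120154 counts. The lower level of Trp63 in uncured mice thus depends on the scaling. In TMM CPM the uncured and cured mice did not overlap in Trp63, as was so for 37.3% of genes in this direction. All 12 muscle genes were also lower in the uncured mice. From the wider lists, 33 of 42 tested genes were higher and 2 lower in untreated than in cured mice (median log2 fold change 3.54, against 0.05 over all genes), and 34 of 41 higher and 2 lower in uncured mice (median 3.55). The largest differences in untreated mice were for Krt4 (7.31 ± 0.88, adjusted p = 0.000286), Krt16, a keratin of activated epidermis (adjusted p = 0.000168), and Krt13, the partner of Krt4 (adjusted p = 0.00737). Krt16 and Krt13 each had 1 count in the cured group, and the ratio of untreated to cured mice was 150 for Krt16 (95% exact binomial interval 26.8 to 5946, counting error only) and 148 for Krt13 (26.4 to 5867). In uncured mice they were for Krt16 (ratio 235, 41.9 to 9333), the desmosomal cadherin Dsg2 (7.26 ± 0.32) and Krt4 (7.11 ± 0.37). Genes lower than in the cured mice were the transcription factor Ovol1 in both groups (-1.04 ± 0.30 and -0.89 ± 0.17), Serpinb2 in untreated mice (-1.86 ± 0.63) and Lypd2 in uncured mice (-3.02 ± 0.69). These values carry the TMM factors, as those of Trp63 do, and the groups were not compared for these genes before that scaling. The number of genes lower in untreated mice ranged from 0 (without cured replicate 2 or 3) to 4 (without untreated replicate 2).

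By label alone, the 5 dual ICI mice at 5wk form 1 group. Against untreated mice edgeR called 0% of genes (1071 at an unadjusted p under 0.05, 45 with DESeq2), and the 9 members had log2 fold changes from -2.33 ± 1.34 (Krt15) to -0.18 ± 0.23 (Trp63). Each member except Trp63 had 2 mice inside or above the untreated range and 3 mice below it.

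Since the gastric epithelium sum differed between mice, counts of the members were also related to the summed counts of the gastric epithelium markers. Two-sided exact permutation tests over mice were run on the log2 ratio for the 5 tested genes in 4 comparisons with untreated mice, and none of the 20 passed after adjustment. In the dual ICI 3wk mice, Krt5 was 0.632, 2.56, 0.0547, 0.569 and 0.338 per 1000 epithelium counts, against 0.903, 7.04, 8.38, 1.13 and 9.32 in untreated mice. The log2 difference was -2.80, with an exact p = 0.0397 and an adjusted p = 0.265. For Krt14 it was -0.69, with an exact p = 0.0238 and an adjusted p = 0.265, and for Dsg3 -0.48, with an exact p = 0.0556 and an adjusted p = 0.278. Dsg3 in anti-CTLA4 mice (0.97, exact p = 0.0317, adjusted p = 0.265) was the only other test with an unadjusted p under 0.05. The smallest two-sided p this design allows is 0.00794 for 5 against 5, 0.0159 for 4 against 5 and 0.0952 for the 2 uncured mice, which could not reach 0.05.

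The same ratio was taken over time in untreated mice, an addition made after the counts had been compared. Krt5 went from 5.36 ± 4.04 to 14.2 ± 6.34 per 1000 epithelium counts (SD, n = 5 and 5; exact p = 0.0476, adjusted p = 0.119). Dsg3 had a log2 difference of -0.88 (exact p = 0.0397, adjusted p = 0.119), Krt14 of -0.31, Trp63 of -0.24 and Sprr1a of 0.12. As a description, Sprr2a3 was 9.51 to 13.8 per 1000 at 5wk against 5.56 to 8.59 at 3wk, and Serpinb5 was 4.68 to 7.44 against 8.61 to 11.7. In neither gene did the groups overlap, and the directions were opposite. On this scale 0.307% of genes were higher and 5.66% lower at 5wk without overlap, but both genes were chosen by their measured counts, so nothing is read from these shares.

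**Figure D3:**
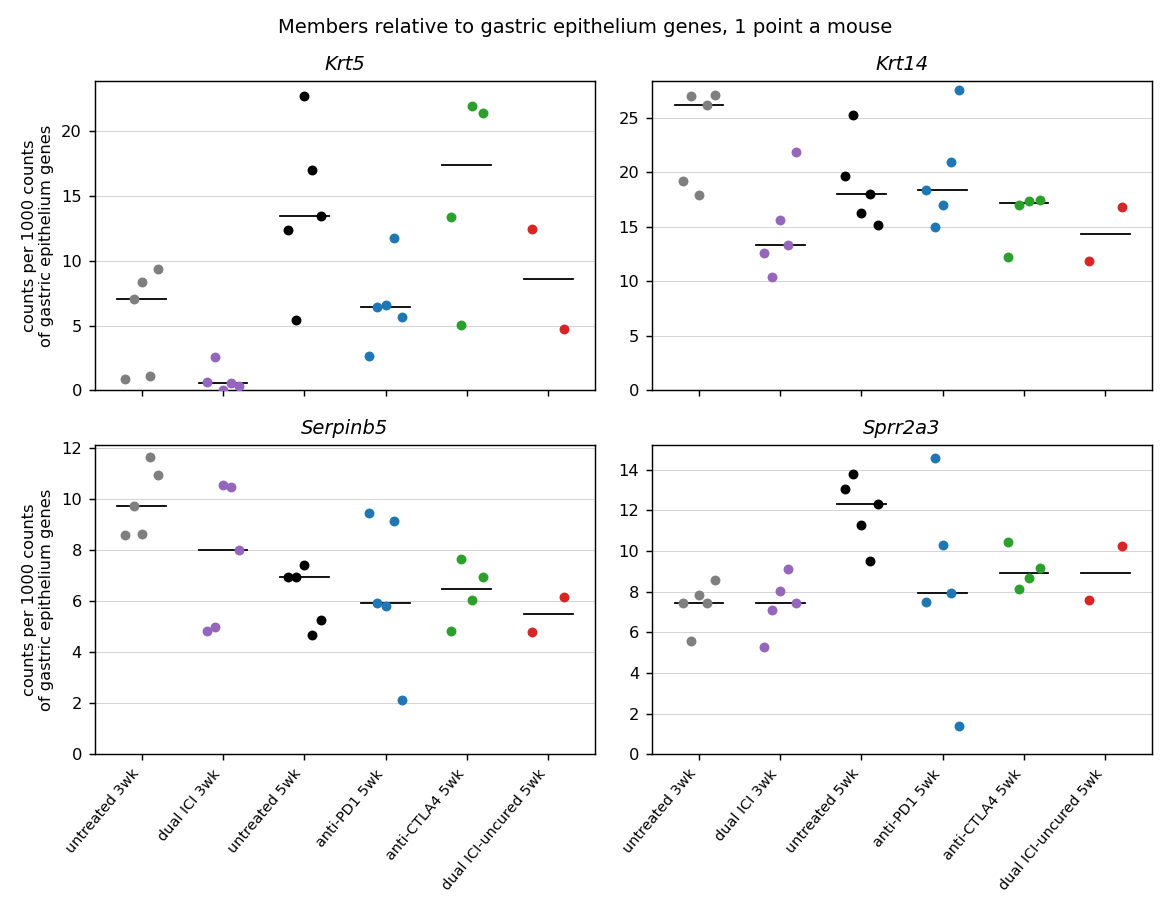
Counts of 4 genes per 1000 summed counts of 15 gastric epithelium markers (linear axis from 0), by group without the cured mice; each point is 1 mouse and the bar is the median. Sprr2a3 in untreated mice lies higher at 5wk (9.51 to 13.8) than at 3wk (5.56 to 8.59) and Serpinb5 lower, and Krt5 is lowest in the dual ICI 3wk mice.

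How the members moved with each other was described by Pearson's r of log2 CPM across mice, which share libraries, depth and tumor content. The mice were pooled over treatments and over both time points, so differences between groups also enter r. Over the 25 mice outside the cured group and anti-PD1 replicate 5, Krt5, Krt15 and Ly6d formed one block, with r of 0.95 to 0.97 between each pair. A second block held Krt14, Serpinb5, Dsg3, Sprr1a and Sprr2a3, with r of 0.89 between Krt14 and Serpinb5, 0.84 between Sprr1a and Sprr2a3, and 0.68 to 0.84 for the other pairs. Between the blocks r was 0.35 to 0.71, lowest for Krt5 with Serpinb5. Trp63 had r of 0.69 to 0.75 with the first block and -0.16 to 0.27 with the second. Over all 29 mice, 4 of which lie far below the others, r between the blocks was 0.64 to 0.82 and Trp63 had r of 0.17 to 0.29 with the first block. The blocks were named after r was seen. Over the 25 mice, r between the blocks reached 0.71 and r within the second block went down to 0.68. The second block is thus not sharply set apart from the first. By this naming the 2 keratins that pair in basal cells, Krt5 and Krt14, fell into different blocks, with r of 0.58 over 25 mice.

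**Figure D4:**
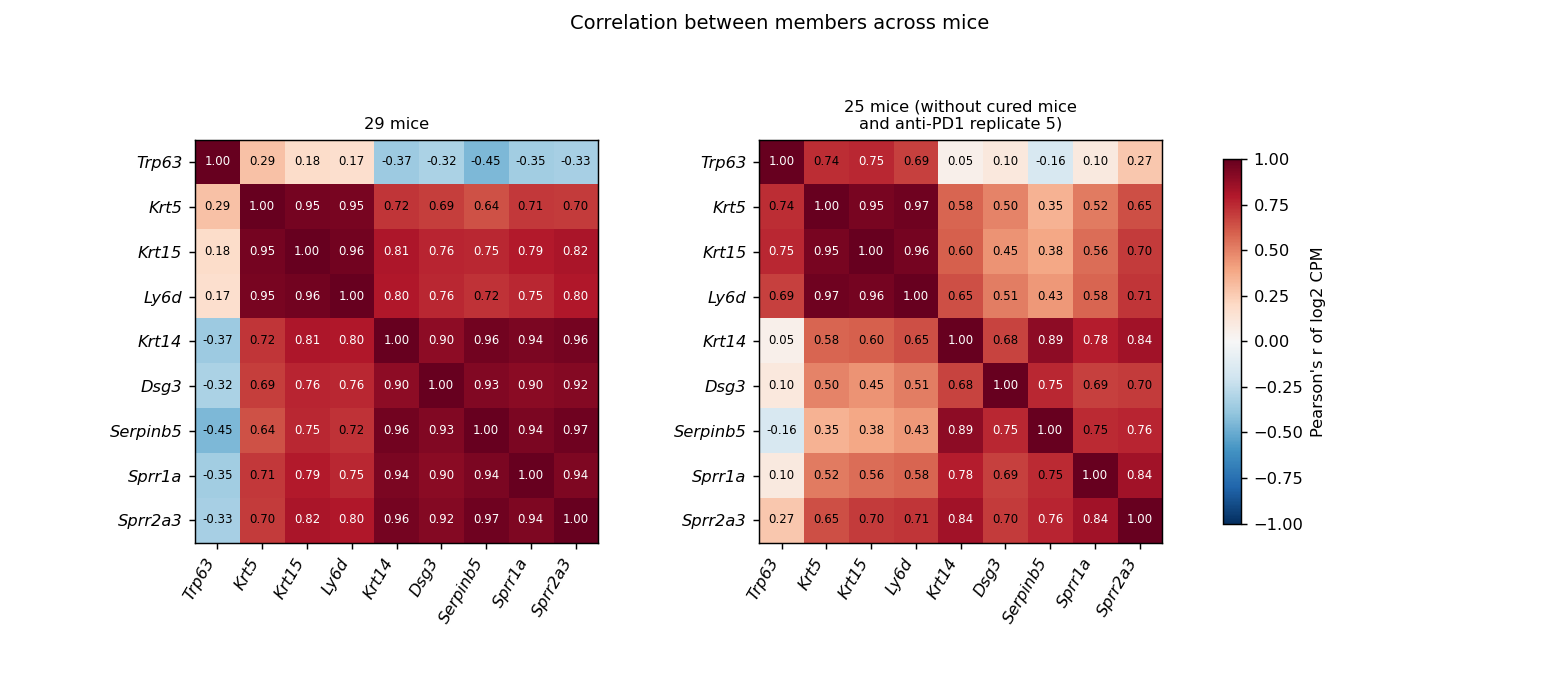
Pearson's r of log2 CPM between the 9 genes across 29 mice (left) and across the 25 mice outside the cured group and anti-PD1 replicate 5 (right); colour runs from -1 to 1. On the right, Krt5, Krt15 and Ly6d form a block at 0.95 or more, apart from the genes from Krt14 to Sprr2a3.

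**Figure D5:**
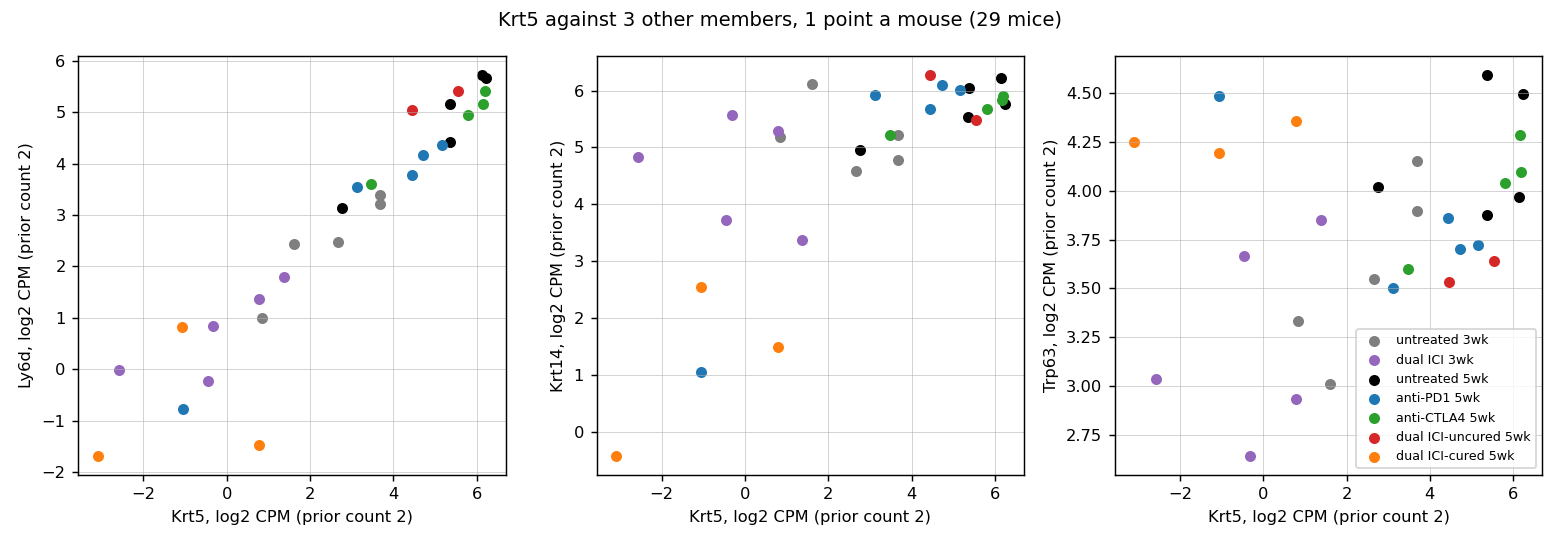
Ly6d, Krt14 and Trp63 against Krt5 (log2 CPM, prior count 2), each point 1 of 29 mice, coloured by group. Ly6d rises with Krt5 across the groups, Krt14 is high in several 3wk mice in which Krt5 is low, and Trp63 is high in the cured mice, in which Krt5 is low.

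Among 14881 genes with at least 1 CPM in 5 or more mice, those most like the members were then listed, without a test. Over the 26 mice outside the cured group, anti-PD1 replicate 5 included, Krt5 was closest to Ly6d (r = 0.97), Krt17 (0.97) and Col17a1 (0.96). Krt15 was closest to Col17a1 (0.97), Ly6d (0.96) and Krt4 (0.96), and Ly6d to Krt5, Krt17 and Krt15. Over these mice, genes of the first block were closest to each other and to other basal or squamous genes. Of the second block, Serpinb5 was closest to the tight junction gene Cldn2 (0.98), Clca3b and Mal2, Sprr2a3 to Spint1 (0.99), Crb3 and Tm4sf4, and Sprr1a to Tm4sf4 (0.96), the simple keratin Krt8 (0.95) and Sprr2a3. For Dsg3 they were Rab11fip1 (0.95), Slc7a1 and Ahr. Trp63 had no gene above 0.77, the closest being Smyd3, Syngr1 and Pdzd3. Leaving out anti-PD1 replicate 5 changed several of these lists. Over the other 25 mice, Serpinb5 was closest to Rab27b (0.95), Tm4sf1 and Cd44, Sprr1a to Dap (0.92), Anxa8 and Akr1b8, and Sprr2a3 to Sdcbp2 (0.97), Anxa13 and Spint1. Trp63 was then closest to Pdzd3 (0.81), Col17a1 (0.78) and Syngr1 (0.76), and Dsg3 to Rab11fip1 (0.92), Samd5 and Eif2ak3. For Krt5 and Ly6d the lists held the same genes, and for Krt15 Defb1 took the place of Krt4. With the cured mice included the lists were alike for the first block (Krt17 for Krt5, Ly6d for Krt15, Krt15 for Ly6d), and Serpinb5 was closest to Fermt1 and Cdh1 (0.99 each).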

How the data were processed

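RNA-seq libraries of 29 mice in 7 groups were analysed. The authors deposited whole-number counts for each gene symbol, without normalization. The submitters' processing notes name mm10, STAR 2.7.0f and featureCounts 1.6.4. The paper's methods name another version of STAR and a different counting program, HTSeq, so which of them made the counts is not settled. Annotation and strand setting are not given in the sources used here. Replicates are numbered mice, and p-values measure the spread between them.

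Library totals were 25989217 to 31219650 counts (median 28625462), and no pair of libraries of the same group agreed within sampling noise. Pairs from different groups were not compared in this way. CPM and log2 values were computed from these counts with TMM factors over 29 libraries. Comparisons used edgeR 4.0.16 in R 4.3.3 (filterByExpr, glmQLFit, glmQLFTest, two-sided, Benjamini-Hochberg adjustment over all genes tested), with only the groups compared in the fit, and the test was tested on simulated data. The SE of a log2 fold change was its absolute value divided by the square root of the F statistic of that test. For the 4 genes given as a description, the SE is given as a spread only, and no test is drawn from it. Reads shared by gene copies were checked with 100-base windows of GENCODE vM21 transcripts. Exact permutation tests enumerated every split of the mice, with 2 added to each count.

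The members and lists were chosen with earlier results of these data known. Named from the wider lists were up to 3 genes in each direction with the largest change among those with an adjusted p under 0.05 and groups without overlap. Slurp2 of the Ly6 list and the markers Flg and Muc16 were not analysed here. The genes most like Krt14 are not reported here. Alternatives were DESeq2 1.42.0, upper-quartile scaling, no filter on low counts, all 29 libraries in the fit, a replicate block, and each mouse left out in turn; for the ratios, a pseudocount of 0.5, Krt8 and Krt18 as the denominator, and, added after seeing the data, the list without its 5 trefoil, gastrokine and mucin 5AC genes.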

Additional observations from a re-analysis of the deposited data

Results flagged for a closer look

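In groups of 4 or 5 mice, the highest and the lowest CPM of each gene were compared with the gap to the nearest other mouse by Dixon's criterion. Of 45 gene and group combinations, 3 had a mouse far from the others, and chance alone flags about 1 in 20.

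Krt14 in anti-PD1 replicate 5 was 2.01 CPM, and the next mouse of the group had 50.8 CPM. Sprr2a3 in untreated 5wk replicate 2 was 17.0 CPM, and the next mouse had 37.5 CPM. Krt15 in dual ICI 3wk replicate 2 was the highest of its group, at 1.19 CPM against 0.699 CPM for the next. The first 2 of these libraries had the lowest gastric epithelium sum and the highest muscle sum (in CPM) of their groups. The third had the lowest gastric epithelium sum of its group (990 CPM).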

How the results depend on the processing

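The number of genes called depended on the tool and on single mice. DESeq2 called 492 genes for dual ICI at 3wk (edgeR 89), 17 for uncured mice and 45 for all dual ICI mice against untreated mice (edgeR 0 in each), 3127 over time (edgeR 1687) and 1 in the interaction (edgeR 0). Of the 5 tested members it called 1, Krt5, for dual ICI at 3wk. Leaving out single mice gave 6 (without untreated 3wk replicate 5) to 119 genes (without dual ICI replicate 1) for dual ICI at 3wk. It gave 654 (without untreated 3wk replicate 5) to 4915 genes (without untreated 5wk replicate 2) over time, and 4491 (without cured replicate 3) to 9388 (without untreated 5wk replicate 2) for untreated against cured mice. The members called over time then numbered 0 to 2, and those against the cured mice 3 or 4, since Dsg3 dropped out of the fit without untreated 5wk replicate 1, 3 or 5. The cause of these shifts was not tested.

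Deviations of same-numbered mice from their group means had correlations of both signs (-0.645 to 0.695), which neither show nor exclude a pairing. No label pairs the mice, so the main fits were unpaired. In the column names, most dual ICI 3wk libraries carry another mouse number than in their titles. The replicate block for dual ICI at 3wk was set by title number, so the mice it joined need not belong together. With a replicate block, 209 genes were called for dual ICI at 3wk and 4016 for untreated against cured mice, and 2 members over time, as Trp63 was then called (0.60, adjusted p = 0.037). For uncured against cured mice no paired analysis was possible because they share no replicate numbers.

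A change of sign was counted where it exceeded 1 SE or 1 SD. Relative to the gastric epithelium list, the differences over time of Trp63 (-0.24), Krt14 (-0.31) and Dsg3 (-0.88) turned negative, and Krt5 (1.84) no longer passed. With 1 mouse left out, Sprr1a ranged from -0.58 to 0.32 for dual ICI at 3wk, and in uncured mice Krt14 ranged from -0.31 to 0.51, Serpinb5 from -0.053 to 0.63 and Sprr2a3 from -0.32 to 0.43. None of the 20 ratio tests passed under any alternative tried. Precision is limited by the number of mice, with 2 uncured and 3 cured, and for Dsg3 also by few counts.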
